A study of Mus musculus with 10 samples.

Results

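The 10 genes described here encode the TGF-beta ligands (Tgfb1, Tgfb2 and Tgfb3), their receptors (Tgfbr1, Tgfbr2 and Tgfbr3) and the latent TGF-beta binding proteins (Ltbp1, Ltbp2, Ltbp3 and Ltbp4). They were chosen by gene symbol, and all 10 were found among the 30319 genes of the deposited table and passed the filter on low values (2 or more libraries reaching 1 TPM, a length-corrected share of all transcripts) with 16932 genes in all. Total RNA depleted of ribosomal RNA came from the inguinal mammary fat pad (subcutaneous) of FVB females, either wild type or FAP-/- (null for fibroblast activation protein, a serine protease on the surface of activated fibroblasts). From 12 to 30 weeks of age the mice ate matched diets with 10% (low-fat, LFD) or 60% (high-fat, HFD) of calories from fat. The 10 libraries are 2 of WT_LFD, 3 of Null_LFD, 2 of WT_HFD and 3 of Null_HFD, which the series calls biological replicates. The null allele was carried by the whole animal, as far as the labels say, and which part of the gene is disrupted is not given in the sources used here.

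TGF-beta is made as a dimer that stays bound to its own cleaved propeptide, and this small latent complex is usually linked to a latent TGF-beta binding protein, which ties it to fibrillin and fibronectin in the matrix. Integrins or proteases release the ligand, which binds the type II receptor (Tgfbr2), which in turn phosphorylates the type I receptor (Tgfbr1) and through it SMAD2 and SMAD3; the type III receptor betaglycan (Tgfbr3) presents the ligand, TGF-beta 2 in particular. In fat, TGF-beta is known as an inhibitor of adipocyte formation and as an inducer of matrix genes.

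Promoter sequence is shown for 2 ligands whose transcripts varied in different libraries, Tgfb1 and Tgfb2, and for both annotated starts of Ltbp1. The table gives 1 value for Ltbp1, and which of its transcripts entered that value is not given in the sources used here. Tgfbr1 and Ltbp4 also had more than 1 start and are not printed. The RefSeq table (GRCm38.p6) had 12 promoter entries for 8 of the 10 members, and none for Tgfb3 or Tgfbr3. Each line holds the 250 bases before the start, and capitals mark matches on either strand to 6 motifs: the TATA box TATAAA, the GC box GGGCGG, the AP-1 site TGANTCA, the cAMP response element TGACGTCA, the SMAD binding element GTCTAGAC and the E-box CACGTG. The Tgfb1 window is chr7:25686752-25687001 (plus strand), that of Tgfb2 is chr1:186705990-186706239 (minus strand), and those of Ltbp1 are chr17:75005279-75005528 and chr17:75178531-75178780 (plus strand).
Tgfb1: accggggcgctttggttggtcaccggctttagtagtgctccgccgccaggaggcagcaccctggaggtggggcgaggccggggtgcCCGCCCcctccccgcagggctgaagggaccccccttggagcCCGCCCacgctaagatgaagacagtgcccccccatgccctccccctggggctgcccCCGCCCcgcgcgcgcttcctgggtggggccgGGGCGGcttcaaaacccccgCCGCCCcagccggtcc
Tgfb2: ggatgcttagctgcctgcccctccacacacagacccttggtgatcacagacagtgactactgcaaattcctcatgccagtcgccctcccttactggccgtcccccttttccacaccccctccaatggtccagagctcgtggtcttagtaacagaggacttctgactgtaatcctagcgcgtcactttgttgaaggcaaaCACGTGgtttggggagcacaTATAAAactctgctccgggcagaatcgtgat
Ltbp1, upstream start: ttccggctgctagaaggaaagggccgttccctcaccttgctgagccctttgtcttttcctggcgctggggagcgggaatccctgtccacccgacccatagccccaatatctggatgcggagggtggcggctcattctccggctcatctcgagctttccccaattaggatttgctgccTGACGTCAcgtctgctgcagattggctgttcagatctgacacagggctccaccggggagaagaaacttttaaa
Ltbp1, downstream start: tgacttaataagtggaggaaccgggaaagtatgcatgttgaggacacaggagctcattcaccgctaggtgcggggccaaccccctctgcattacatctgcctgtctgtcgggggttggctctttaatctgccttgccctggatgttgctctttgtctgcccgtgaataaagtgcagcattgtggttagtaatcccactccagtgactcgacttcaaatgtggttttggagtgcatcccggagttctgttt
The Tgfb1 window held 5 GC boxes and none of the other 5 motifs, with 75.2% G and C against a median of 52.4% over 32851 promoter windows. The Tgfb2 window (53.6% G and C) held 1 TATA box beginning 31 bases before the start and 1 E-box beginning 51 bases before it. The upstream window of Ltbp1 held 1 cAMP response element, and the downstream window held none of the 6 motifs. Among all windows, 32.7% held a GC box, 12.4% a TATA box, 6.02% the E-box and 1.55% the cAMP response element. AP-1 sites were in 6.75% of all windows and the SMAD binding element in 0.167%, and no window of the 8 members held either. These are matches of letters, and binding was not measured.

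The tissue label was checked against marker genes. Adipocyte transcripts were high in every library, with Adipoq (adiponectin) at 752 to 3206 TPM and Fabp4 (a fatty acid binding protein) at 6439 to 16944 TPM. WT_HFD 2 and Null_HFD 3 stood apart through lymph node transcripts: the 14 lymph node markers summed to 1673 and 3825 TPM in them, against 27.6 to 77.6 TPM in the other 8 libraries. Both had the lowest skeletal muscle sums, 258 and 110 TPM. The 8 luminal epithelial markers summed to 320 (Null_HFD 3) to 3030 TPM (Null_LFD 2). In bulk tissue, fewer cells of a type and less RNA per cell cannot be told apart. Fap transcripts were still listed in every library labelled null, at 18.3 to 38.4 TPM, and the wild-type range was 37.7 to 68.8 TPM, so that Null_HFD 2 overlapped it. A gene-level value can include transcript parts outside the disrupted region, but whether it did here was not tested. The averaged difference of Fap was -0.94 (SE 0.21, adjusted p = 0.686).

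TPM corrects for transcript length, so levels can be set side by side between genes. Ltbp1, the binding protein that is the usual partner of latent TGF-beta 1, was the highest of the 10 members in 10 of 10 libraries (mean over libraries 124 TPM, range 89.2 to 152 TPM). Tgfbr3 (mean 79.9 TPM) and Tgfbr2 (mean 73.0 TPM) came next, and which of the pair was higher varied, with Tgfbr3 ahead in 7 of 10 libraries. Tgfbr1 (46.1 TPM), Ltbp4 (42.2 TPM), Ltbp3 (38.3 TPM), Tgfb3 (30.8 TPM) and Ltbp2 (29.1 TPM) followed, and neighbours in this stretch held their order in only 4 to 7 of 10 libraries. Tgfb1 lay at a mean of 17.1 TPM, under Ltbp2 in 10 of 10 libraries. Tgfb2 was the lowest member in 9 of 10 libraries (mean 7.36 TPM); the exception was Null_LFD 2, where Tgfb1 was lowest. Every receptor was higher than every ligand in 9 of 10 libraries, the exception again being Null_LFD 2.

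The members differed in how much they varied among libraries. Tgfb2 spanned 9.62-fold and Tgfb3 6.95-fold from the lowest to the highest library, while Tgfbr1 spanned 1.59-fold, Ltbp1 1.70-fold and Tgfbr3 1.87-fold. The other 5 spanned 2.15-fold (Tgfbr2) to 3.31-fold (Ltbp4).

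**Figure D1:**
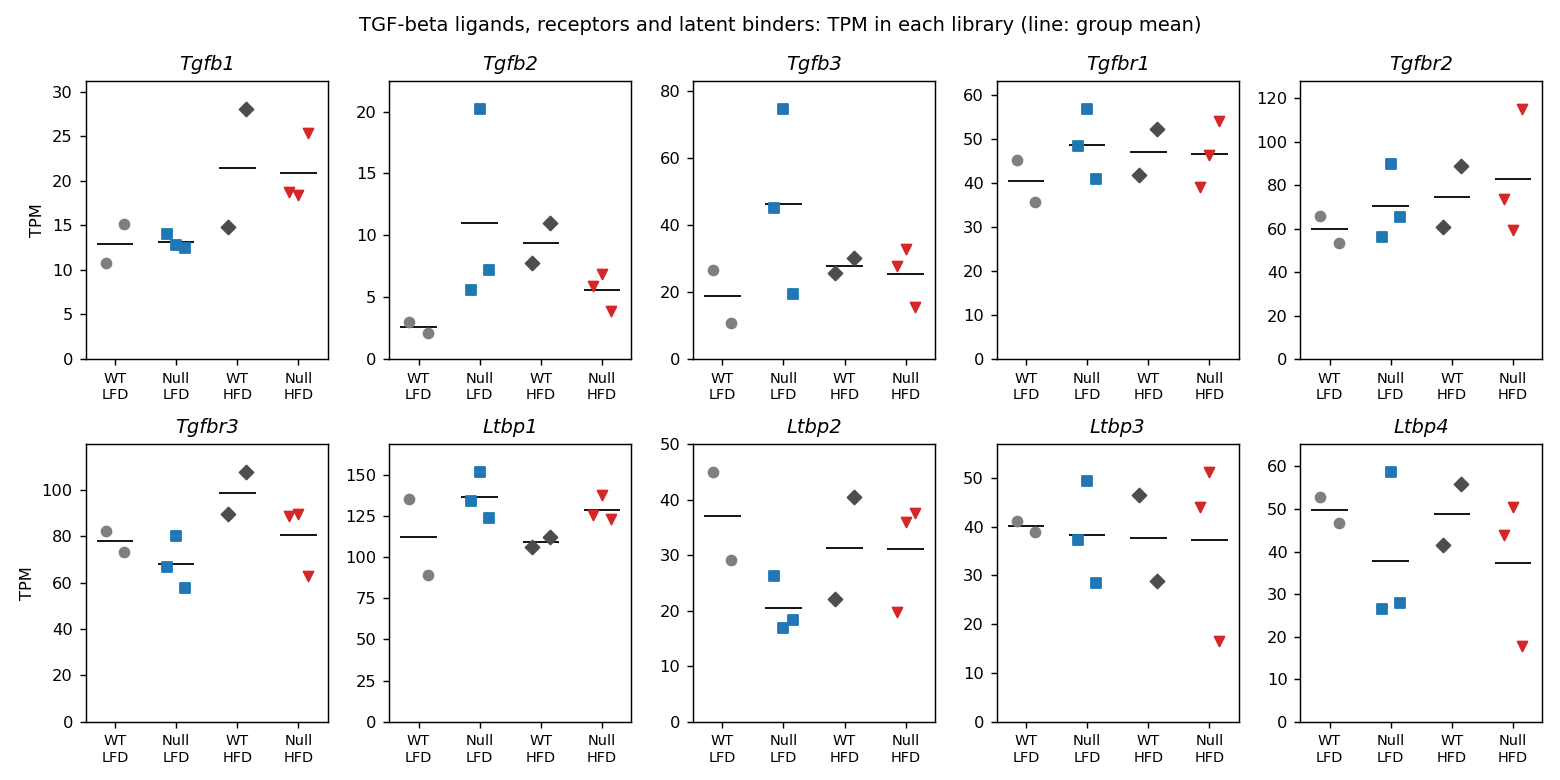
TPM of each of the 10 members (vertical axes, each from 0) in the 4 groups; points are libraries and the black line is the group mean. Tgfb2 and Tgfb3 reach their highest values, 20.2 and 74.6 TPM, in the same Null_LFD library, and Tgfbr1 and Ltbp1 span least, 1.59-fold and 1.70-fold.

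The design compares null with wild type and high-fat with low-fat diet, each within the other factor and on average, plus their interaction. Values of log2(TPM + 1) were fitted with limma over all 16932 genes, and a gene was called at a Benjamini-Hochberg adjusted p of at most 0.05. No member was called in any of the 7 comparisons. Over all genes tested the share called was 0% for genotype on average, 0% for genotype on the low-fat diet, 0.0118% for genotype on the high-fat diet, 0% for diet on average, 0% for diet in wild type, 0.00591% for diet in null and 0% for the interaction. Before adjustment, 1 of 10 members had a p under 0.05 for genotype on the low-fat diet (4.43% of all genes), diet on average (9.69%), diet in wild type (5.61%), diet in null (6.67%) and the interaction (4.14%), and 0 of 10 did for genotype on average (4.19%) and on the high-fat diet (3.82%). Differences are therefore given as values with their intervals.

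Of the ligands, Tgfb2 encodes the isoform that depends most on betaglycan for receptor binding. On the low-fat diet it measured 3.01 and 2.10 TPM in WT_LFD, then 5.58, 20.2 and 7.17 TPM in Null_LFD. All 3 null libraries lay above both wild-type libraries, and Null_LFD 2 lay far above the rest. On the high-fat diet the order was the other way, with 7.75 and 11.0 TPM in WT_HFD, then 5.92, 6.90 and 3.90 TPM in Null_HFD, again without overlap. The low-fat difference, null minus wild type, was 1.57 on the log2 scale (SE 0.48, 95% interval 0.47 to 2.66, adjusted p = 0.949), and the high-fat difference was -0.67 (SE 0.48, -1.76 to 0.42, adjusted p = 1). Without both lymph node-rich libraries, WT_HFD 2 and Null_HFD 3, the high-fat difference of Tgfb2 was -0.24. That value rests on WT_HFD 1 as the only wild-type library on that diet. The interaction, the second difference minus the first, was -2.24 (SE 0.69, -3.78 to -0.69, adjusted p = 1). Opposite separation of this kind, in either order, was seen in 1.77% of all genes tested. Without Null_LFD 2 the interaction was -1.73, and over 19 alternative settings it ran from -2.61 to -1.73 with no call.

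Tgfb3, the ligand of highest level, is known for its part in palate and mammary gland biology. It measured 26.6 and 10.7 TPM in WT_LFD, 45.0, 74.6 and 19.4 TPM in Null_LFD, 25.5 and 30.0 TPM in WT_HFD and 27.6, 32.8 and 15.4 TPM in Null_HFD. The Null_LFD libraries were spread widely and 1 of them fell within the wild-type range. Its low-fat difference was 1.20 (SE 0.56, interval -0.06 to 2.47, adjusted p = 0.949), its high-fat difference -0.19 (-1.46 to 1.08, adjusted p = 1) and its interaction -1.39 (-3.18 to 0.40, adjusted p = 1). Without WT_LFD 2 the low-fat difference of Tgfb3 was 0.58 and the interaction -0.78, and without WT_LFD 1 they were 1.82 and -2.01. The high-fat difference of Tgfb3 was 0.23, of the opposite sign, without both lymph node-rich libraries, with WT_HFD 1 alone for wild type.

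Markers of mammary epithelium are given beside Tgfb2 and Tgfb3. The luminal list lay above the mean of the 10 libraries by 0.65, 1.32 and 0.73 (log2) in Null_LFD 1, 2 and 3, against 0.03 and -1.13 in WT_LFD 1 and 2. On the high-fat diet it lay at 0.19 and 0.43 in wild-type and at -0.16, -0.17 and -1.88 in null libraries. As for Tgfb2, the null libraries lay above wild type on the low-fat diet and below it on the high-fat diet. All 8 luminal markers had an interaction below 0, with a median of -2.46 against -0.13 over all genes tested, of which 38.2% were above 0, and none was called. The summed luminal markers ran from 519 to 1168 TPM in WT_LFD, 1796 to 3030 TPM in Null_LFD, 1338 to 1518 TPM in WT_HFD and 320 to 1067 TPM in Null_HFD, with no marker at 0. The 9 macrophage markers of the table also lay higher in Null_LFD (summed 1021 to 1332 TPM) than in WT_LFD (795 to 868 TPM). Skeletal muscle markers separated the same way on the low-fat diet (3145 to 8661 TPM summed in Null_LFD, 1975 to 2649 TPM in WT_LFD), with all 8 interactions below 0. All 6 basal epithelial markers were also above 0 for null minus wild type there, with overlapping sums (112 to 179 against 53.1 to 118 TPM). Mature adipocyte markers lay lower in Null_LFD, at -0.54 to -0.04 from the 10-library mean (log2) against 0.04 to 0.22 in WT_LFD. The part of any of these cell types in the Tgfb2 and Tgfb3 values was not tested.

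Tgfb1, the isoform made by most immune and stromal cells, had overlapping ranges for genotype, and its mean was 13.0 TPM (SD 1.68, n = 5) on the low-fat and 21.1 TPM (SD 5.44, n = 5) on the high-fat diet. It measured 10.7 and 15.2 TPM in WT_LFD, 14.1, 12.8 and 12.5 TPM in Null_LFD, 14.9 and 28.1 TPM in WT_HFD and 18.8, 18.4 and 25.3 TPM in Null_HFD. The 2 highest values came from WT_HFD 2 and Null_HFD 3, the libraries with lymph node transcripts, and WT_HFD 1 lay below the highest low-fat library. High-fat minus low-fat was 0.63 averaged over genotypes (SE 0.21, interval 0.16 to 1.10, adjusted p = 0.513), 0.64 in wild type (SE 0.32, adjusted p = 0.761) and 0.62 in null (SE 0.26, adjusted p = 0.734). Without both lymph node-rich libraries the averaged difference was 0.34, and the wild-type difference was 0.20 without WT_HFD 2 and 1.08 without WT_HFD 1. Null minus wild type was 0.02 (interval -0.45 to 0.49, adjusted p = 0.997), a sign that turned with scaling of the libraries (-0.05 with median-of-ratios scaling). The part of lymph node cells in the diet difference was not tested beyond leaving these libraries out, which left WT_HFD 1 alone in its group.

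**Figure D2:**
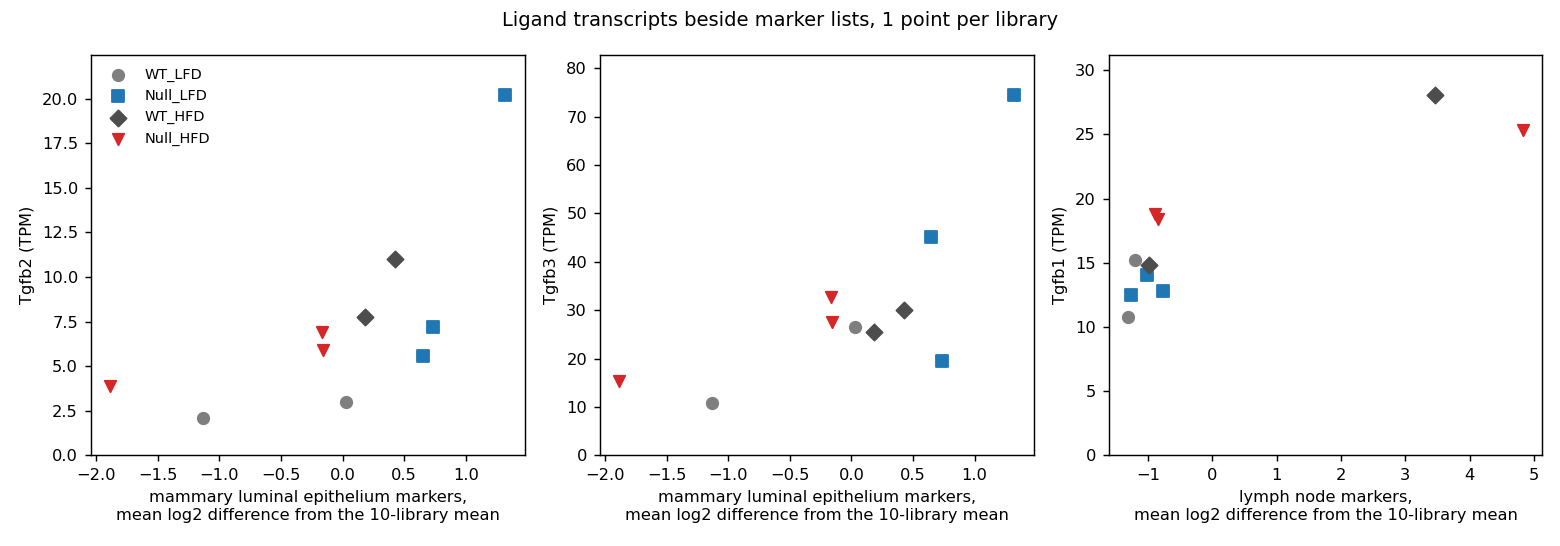
TPM of Tgfb2, Tgfb3 (against the luminal epithelial marker list) and Tgfb1 (against the lymph node marker list) in each of the 10 libraries, where the horizontal axis is the mean log2 difference of the list from the 10-library mean. Null_LFD 2 has the highest luminal list (1.32) with the highest Tgfb2 and Tgfb3, and the 2 libraries with lymph node lists of 3.46 and 4.82 have the highest Tgfb1.

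The makeup of the ligand class varied between libraries. Tgfb3 gave the largest part of ligand TPM in 8 of 10 libraries, and Tgfb1 did so in WT_LFD 2 (54.2%) and Null_HFD 3 (56.8%). The share of Tgfb2 was 7.46% and 7.51% in the WT_LFD libraries, 8.63% to 18.8% in Null_LFD, 15.9% and 16.1% in WT_HFD and 8.74% to 11.9% in Null_HFD. Summed ligand TPM ran from 28.0 TPM (WT_LFD 2) to 108 TPM (Null_LFD 2), and the other WT_LFD library, at 40.4 TPM, lay just above Null_LFD 3, at 39.1 TPM.

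The 3 receptors each spanned 2.15-fold or less over the libraries. Tgfbr1, the type I kinase, measured 45.2 and 35.8 TPM in WT_LFD, 48.3, 56.8 and 40.8 TPM in Null_LFD, 41.9 and 52.3 TPM in WT_HFD and 39.0, 46.4 and 54.1 TPM in Null_HFD, and the groups overlapped in all 6 comparisons of ranges. Null minus wild type was 0.12 for Tgfbr1 (interval -0.24 to 0.47, adjusted p = 0.98), so a doubling, 1 on the log2 scale, lay outside the interval. Tgfbr2, the ligand-binding kinase, measured 66.0 and 53.7 TPM in WT_LFD, 56.4, 89.9 and 65.5 TPM in Null_LFD, 60.7 and 88.7 TPM in WT_HFD and 73.9, 59.6 and 115 TPM in Null_HFD. Its highest level was in Null_HFD 3, followed by Null_LFD 2 and WT_HFD 2. Its averaged diet difference of 0.25 (interval -0.25 to 0.75, adjusted p = 0.679) was -0.02 without the lymph node-rich libraries. Tgfbr2 exceeded Tgfbr1 in 10 of 10 libraries, by 1.17-fold to 2.13-fold.

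Tgfbr3, which has no kinase activity, measured 82.3 and 73.3 TPM in WT_LFD, 66.8, 80.0 and 57.8 TPM in Null_LFD, 89.7 and 108 TPM in WT_HFD and 88.8, 89.7 and 63.0 TPM in Null_HFD. On the high-fat diet all null libraries lay below both wild-type libraries, although 2 of them by less than 1 TPM. Null minus wild type was -0.30 there (interval -0.80 to 0.20, adjusted p = 1) and -0.25 on average (-0.60 to 0.10, adjusted p = 0.98). Leaving out both lymph node-rich libraries brought the high-fat difference of Tgfbr3 to -0.01 and the averaged one to -0.10. WT_HFD 1 was then the only wild-type library on that diet. High-fat minus low-fat was 0.28 on average (-0.07 to 0.64, adjusted p = 0.543), and 0.15 with median-of-ratios scaling. In wild type both high-fat libraries lay above both low-fat ones, by 0.34 on the log2 scale and by 0.12 with that scaling.

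Among the latent binding proteins, Ltbp1 measured 135 and 89.2 TPM in WT_LFD, 134, 152 and 124 TPM in Null_LFD, 106 and 112 TPM in WT_HFD and 125, 138 and 123 TPM in Null_HFD. On the high-fat diet all null libraries were above both wild-type ones, and on the low-fat diet WT_LFD 1 lay within the null range. Null minus wild type was 0.27 for Ltbp1 on average (SE 0.15, interval -0.06 to 0.60, adjusted p = 0.98), and 0.19 with median-of-ratios scaling. Single libraries moved it further, to 0.12 without WT_LFD 2 and 0.42 without WT_LFD 1. Ltbp2, which binds fibrillin and, unlike its relatives, does not bind latent TGF-beta, measured 45.1 and 29.1 TPM in WT_LFD, 26.2, 16.9 and 18.4 TPM in Null_LFD, 22.0 and 40.4 TPM in WT_HFD and 19.7, 36.0 and 37.6 TPM in Null_HFD. The low-fat null libraries lay below both wild-type libraries, and the high-fat groups overlapped. Its difference was -0.82 on the low-fat diet (SE 0.37, interval -1.66 to 0.02, adjusted p = 0.949) and 0.00 on the high-fat diet (-0.84 to 0.84, adjusted p = 1), and the interaction was 0.82 (-0.36 to 2.01, adjusted p = 1). Without WT_LFD 1 the low-fat difference of Ltbp2 was -0.51, and the interaction was 0.40 without WT_HFD 1 and 1.24 without WT_HFD 2.

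Ltbp3 and Ltbp4, which also bind latent TGF-beta, had their lowest values in Null_HFD 3, 16.7 and 17.8 TPM, against 28.4 to 51.3 TPM and 26.5 to 58.8 TPM in the other 9 libraries. Ltbp3 measured 41.2 and 39.0 TPM in WT_LFD, 37.4, 49.3 and 28.4 TPM in Null_LFD, 46.4 and 28.9 TPM in WT_HFD and 44.1 and 51.3 TPM in the other Null_HFD libraries. Ltbp4, which also supports elastic fibre assembly, measured 52.8 and 46.7 TPM in WT_LFD, 26.5, 58.8 and 27.9 TPM in Null_LFD, 41.6 and 56.0 TPM in WT_HFD and 43.9 and 50.5 TPM in the other Null_HFD libraries. Genotype groups of both overlapped within each diet. Null minus wild type was -0.49 for Ltbp4 (interval -1.23 to 0.25, adjusted p = 0.98) and -0.16 without both lymph node-rich libraries, and it was -0.11 for Ltbp3 (-0.82 to 0.61, adjusted p = 0.993).

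Within the class, Ltbp1 took 43.7% to 49.3% of latent binding protein TPM in the 4 wild-type libraries and 50.0% to 63.1% in the 6 null libraries, so the ranges did not overlap. The share was 49.3% and 43.7% in WT_LFD, 54.9% to 62.4% in Null_LFD, 47.2% and 49.1% in WT_HFD and 50.0% to 63.1% in Null_HFD. The gap between the closest libraries, WT_LFD 1 and Null_HFD 2, was under 1 percentage point. This share was looked at after the values were known and was given no test, and summed class TPM overlapped between genotypes (204 to 275 TPM for wild type, 195 to 277 TPM for null).

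**Figure D3:**
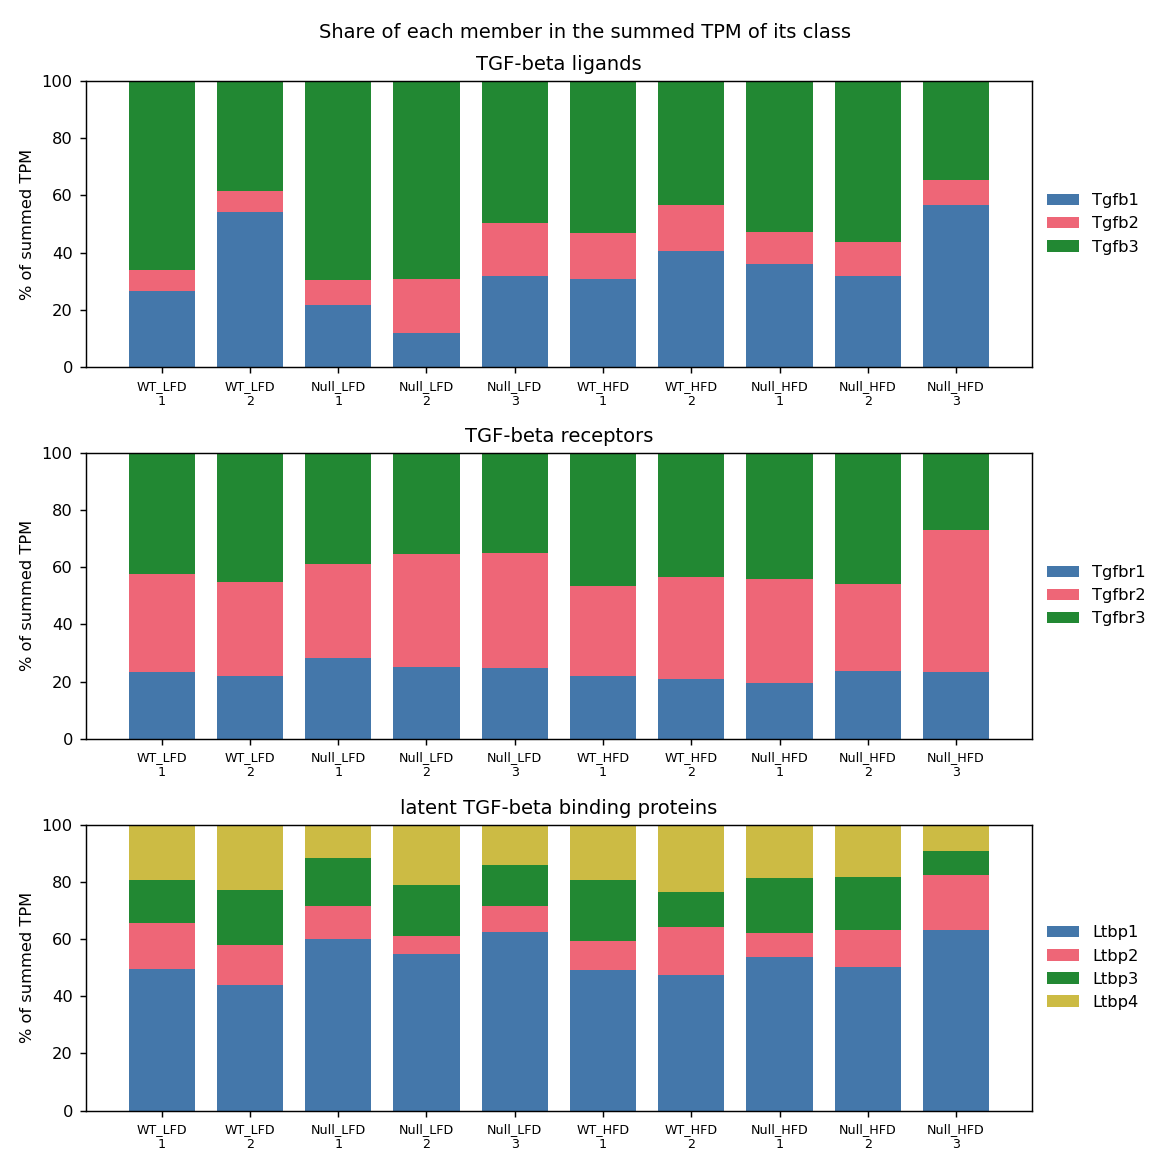
Percent of the summed TPM of each class (ligands, receptors, latent binding proteins) taken by each member, as stacked bars for each of the 10 libraries. Ltbp1 takes 43.7% to 49.3% of its class in wild-type and 50.0% to 63.1% in null libraries, and Tgfb3 is the largest ligand share in 8 libraries. The Ltbp1 share was looked at after the values were known and was given no test, and Ltbp1 TPM itself overlaps between genotypes.

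Counts of members whose groups did not overlap are given beside the share of all genes for which this held. Between genotypes, 0 of 10 members had non-overlapping ranges over both diets (0.921% of all genes), 2 did on the low-fat diet (Tgfb2 and Ltbp2; 25.4% of all genes) and 3 did on the high-fat diet (Tgfb2, Tgfbr3 and Ltbp1; 15.5% of all genes). Between diets, 0 did over both genotypes (2% of all genes), 2 did in wild type (Tgfb2 and Tgfbr3; 45.1% of all genes) and 1 did in null (Tgfb1; 11.1% of all genes). The median of the members' differences was 0.07 for genotype and 0.11 for diet on average, and over all genes tested the medians were 0.08 and 0.11.

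**Figure D4:**
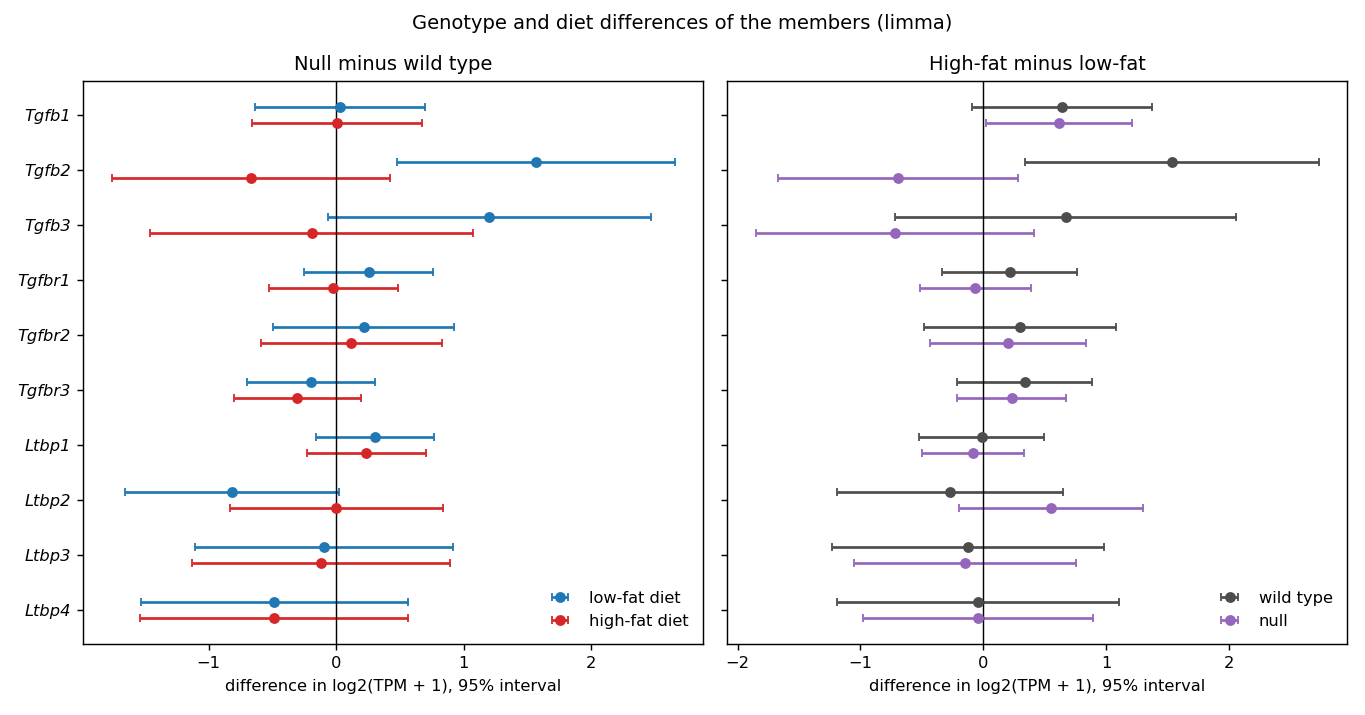
Differences in log2(TPM + 1) of the 10 members with 95% intervals from limma, null minus wild type on each diet (left) and high-fat minus low-fat in each genotype (right). Only Tgfb2, on the low-fat diet and in wild type, and Tgfb1, in null, have intervals that leave out 0 before adjustment.

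For diet within each genotype, the differences of Tgfb2 and Tgfb3 had opposite signs, and none was called. High-fat minus low-fat stood at 1.54 for Tgfb2 in wild type (interval 0.34 to 2.74, adjusted p = 0.761) and at -0.70 in null (-1.67 to 0.28, adjusted p = 0.798). Tgfb3 stood at 0.67 in wild type (-0.71 to 2.06, adjusted p = 0.776) and -0.72 in null (-1.85 to 0.41, adjusted p = 0.804). Single libraries moved these values: the wild-type difference of Tgfb3 was 0.05 without WT_LFD 2 and 1.29 without WT_LFD 1. Without Null_LFD 2 the null difference was -0.29 for Tgfb3 and -0.19 for Tgfb2, and without Null_LFD 3 that of Tgfb3 was -1.23. These comparisons share their libraries with the genotype comparisons above.

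Members were also set beside each other and beside all other genes averaging 5 TPM or more, by Pearson correlation of log2(TPM + 1) over the 10 libraries, as a description without a test. All points share the 4 groups and the tissue makeup of the pads. Among pairs of members, Tgfb2 and Tgfb3 were closest (r = 0.78, n = 10 libraries), followed by Tgfbr3 with Ltbp4 and Tgfb3 with Ltbp1 (both 0.77), and Tgfbr2 with Ltbp3 ran most nearly opposite (-0.61). The best of 11182 genes over 10 libraries can correlate highly without a link, and the best r lay between 0.92 and 0.97 for every member. The nearest to Tgfb1 was Ccl21a (r = 0.95), a lymph node chemokine at 0.479 to 748 TPM. Nearest to Tgfbr2 was Gpsm3 (0.94), a regulator of G proteins in leukocytes, and nearest to Ltbp1 was Oxtr (0.95), the oxytocin receptor. Oxtr is on the basal epithelial list. Krt5, Krt14 and Trp63 of that list were highest in Null_LFD 3 (42.3, 51.5 and 23.2 TPM), where Ltbp1 was 124 TPM. They were lowest in Null_HFD 3 (6.87, 7.60 and 1.90 TPM), where Ltbp1 was 123 TPM. In WT_LFD 2, with the lowest Ltbp1 (89.2 TPM), they measured 7.88, 12.8 and 5.15 TPM. In Null_LFD 2, with the highest Ltbp1 (152 TPM), they measured 32.0, 46.9 and 21.5 TPM. Levels of Krt17 and Mylk, also on the list, are not given here. The part of basal epithelium in the Ltbp1 values was not tested. Tgfb2 was nearest to Gas8 (0.96), Tgfb3 to Sag (0.95), Tgfbr1 to Abtb1 (0.97), Tgfbr3 to Fam102b (0.95), Ltbp2 to Myzap (0.93), Ltbp3 to Etl4 (0.96) and Ltbp4 to Wasl (0.92).

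The rest of the pathway was read from 4 lists, and none of their genes was called for genotype or diet on average. Of 19 genes that anchor or release latent TGF-beta, 15 had a genotype difference above 0 (median 0.29, against 0.08 over all genes, of which 63.5% were above 0). On the low-fat diet 19 of 19 were above 0 (median 0.45), as were 66.9% of all genes, and on the high-fat diet 12 of 19 were (median 0.08), as were 52.1% of all genes, with a median interaction of -0.63. In the same low-fat comparison all 9 macrophage, 8 luminal, 6 basal and 8 skeletal muscle markers were above 0, and their part in the count of this list was not tested. Emilin1, a matrix protein that restrains processing of the TGF-beta precursor, measured 4.32 and 4.43 TPM in WT_LFD, 4.02, 5.84 and 14.9 TPM in Null_LFD, 2.25 and 2.42 TPM in WT_HFD and 4.99, 9.96 and 8.83 TPM in Null_HFD (0.99, SE 0.34, adjusted p = 0.98). On the high-fat diet its null libraries were all above wild type, and on the low-fat diet they overlapped. Itgav, the alpha chain of the integrins that activate TGF-beta, ran from 28.1 to 43.8 TPM (wild type) and from 39.5 to 54.7 TPM (null), with overlap (0.36, SE 0.13, adjusted p = 0.98). For diet, the 2 genes of this list with the smallest p were Nrros, which anchors latent TGF-beta on macrophages (0.68, SE 0.46, adjusted p = 0.581), and Furin, which cleaves its propeptide (0.25, SE 0.18, adjusted p = 0.607). Nrros was highest in the lymph node-rich libraries, at 72.0 and 80.7 TPM against 15.7 to 35.2 TPM elsewhere.

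Of 22 co-receptor, SMAD and inhibitor genes, 17 had a genotype difference above 0 (median 0.08) and 18 a diet difference above 0 (median 0.35, against 0.11 over all genes, of which 63.4% were above 0). Acvrl1, the endothelial type I receptor ALK1, measured 14.4 to 17.5 TPM in WT_LFD, 22.5 to 26.7 TPM in Null_LFD, 21.0 and 31.8 TPM in WT_HFD and 28.0 to 36.4 TPM in Null_HFD. Its differences were 0.42 for genotype (SE 0.16, adjusted p = 0.98) and 0.49 for diet (SE 0.16, adjusted p = 0.513). Dcn (decorin), a proteoglycan that binds TGF-beta, stood at -0.52 for genotype (SE 0.22, adjusted p = 0.98), and its relative Bgn (biglycan) at 0.43 for diet (SE 0.13, adjusted p = 0.513). Dcn and Fap are also among the 10 fibroblast and adipocyte progenitor markers. Of those markers, 8 had a genotype difference below 0 and 2 above 0 (median -0.21, against 0.08 over all genes), and none was called. The part of fibroblasts in the Dcn value was not tested.

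Of the 21 tested among 22 transcripts that TGF-beta is known to induce, 15 had a genotype difference above 0 (median 0.18) and 12 a diet difference above 0 (median 0.07). The 2 with the smallest genotype p were Tnc (tenascin C, 0.50, SE 0.33, adjusted p = 0.98) and Tagln (transgelin, 0.34, SE 0.25, adjusted p = 0.98). Tgfbi, a matrix protein named for its induction by TGF-beta, measured 40.6 and 30.2 TPM in WT_LFD, 41.6, 46.3 and 38.8 TPM in Null_LFD, 58.6 and 79.1 TPM in WT_HFD and 53.1, 61.6 and 108 TPM in Null_HFD. All 5 high-fat libraries lay above all 5 low-fat libraries, as 2% of all genes did in either direction, and the 2 highest were the lymph node-rich ones (0.84, SE 0.21, adjusted p = 0.513). Cdkn1a, the cell cycle inhibitor p21, stood at 1.01 for diet (SE 0.30, adjusted p = 0.513). It measured 11.8 TPM in WT_HFD 1, within the low-fat range of 7.17 to 13.9 TPM. The lymph node-rich WT_HFD 2 was at 31.7 TPM, and Null_HFD ran from 26.8 to 39.4 TPM.

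Of the 26 tested among 28 activin, BMP and GDF genes, 16 had a genotype difference above 0 and 16 a diet difference above 0. Fst (follistatin, which binds activin) stood at -0.61 for genotype (SE 0.24, adjusted p = 0.98) and Gdf15, a stress-induced ligand at no more than 1.89 TPM, at 0.53 (SE 0.30, adjusted p = 0.98). For diet, Bmp3 stood at 0.71 (SE 0.27, adjusted p = 0.513) and Mstn (myostatin, made by skeletal muscle) at -2.16 (SE 0.77, adjusted p = 0.513). Both the lowest and the highest Bmp3 values came from the high-fat diet, 15.8 TPM in WT_HFD 1 and 68.0 TPM in Null_HFD 2. Mstn was lowest in the lymph node-rich libraries, 1.10 and 0.307 TPM against 3.50 to 40.5 TPM elsewhere, which also had the lowest skeletal muscle markers.

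In GENCODE M21 (GRCm38) all 10 members are protein coding. Tgfb1 lies at chr7:25687002-25705077, Tgfb2 at chr1:186622792-186705989, Tgfb3 at chr12:86056745-86079041 and Ltbp1 at chr17:75005568-75392512. Tgfb3 overlaps Ttll5 (10.4 to 19.7 TPM) on the other strand. The library kit keeps strand, but whether the authors' quantification used it is not given in the sources used here, so reads of this pair may not be fully told apart.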

How the data were processed

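The authors deposited 1 value per gene symbol and library as log2(TPM + 1), a unit inferred from the values, which are never below 0 and, taken back to TPM, sum to between 946103 and 954463 in each. The submitters' processing notes name kallisto, limma and GRCm38, with versions and roles not given in the sources used here. TPM keeps no read numbers, so depth is unknown. 1 line of 30320 had no symbol and was left out. No pair of libraries shared more than 2.34% of its tested values.

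The 16932 genes that reached 1 TPM in 2 or more libraries entered a limma model (3.58.1, under R 4.3.3) of 4 group means (6 residual degrees of freedom, variances following mean expression). Tests were two-sided, with Benjamini-Hochberg adjustment over all genes of a comparison. The fit was checked on simulated data with noise drawn independently for each gene. Those data lacked tissue differences shared between genes, so the check does not cover them. Fold differences on the log2(TPM + 1) scale understate changes of low genes. Each p-value sets a group difference against the spread between libraries within groups, pooled over the 4 groups. Named genes are all members, the nearest gene to each, and per pathway list the 2 genes with the smallest p for genotype and for diet on average. Members and lists were chosen with earlier results of these data known. Alternatives covered the pseudocount, filters, scaling, variance model, weights, the replicate number as a block and left-out libraries. Tables and figures were made with Python 3.11.15 and matplotlib 3.10.9.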

Additional observations from a re-analysis of the deposited data

Results flagged for a closer look

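The genotype difference of Tgfb2 ran in opposite directions on the 2 diets. All 3 null libraries lay above both wild-type libraries on the low-fat diet and all 3 lay below both on the high-fat diet, and the interaction was -2.24 on the log2 scale (SE 0.69). The high-fat difference, -0.67, was -0.24 without the lymph node-rich libraries (WT_HFD 1 alone for wild type), and the interaction was -1.73 without Null_LFD 2. The interaction did not pass limma's test over all genes (adjusted p = 1), and 1.77% of all genes tested showed opposite separation in either order.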

How the results depend on the processing

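Depth is unknown and groups hold 2 or 3 libraries, which limits precision. Leaving out a wild-type library leaves its group with only the other library, so such values are effect sizes that rest on it. No member was called in any of the 7 comparisons under 19 or 20 alternative settings each. Genes called over the whole table rose without the filter on low values to 15 for genotype on average and 18 for genotype on the high-fat diet, from 0 and 2. They reached 5 for genotype on the low-fat diet (pseudocount 0.1) and 5 for diet in wild type and 3 each for diet on average and the interaction (no filter), from 0. Of 380 values of members for averaged genotype and diet, 36 changed sign and 0 passed the threshold; the cause was not tested. For genotype, Tgfb1 was -0.051 with median-of-ratios scaling, -0.023 without mitochondrially encoded genes and -0.026 with library weights, and Ltbp3 was 0.126 with library weights. For diet, Tgfbr1 was -0.0579 with median-of-ratios scaling and Ltbp4 was 0.0502 with library weights. Without both lymph node-rich libraries the diet difference was 0.0739 for Tgfb3, -0.0593 for Tgfbr1, -0.0164 for Tgfbr2, -0.152 for Ltbp2, 0.273 for Ltbp3 and 0.0796 for Ltbp4. Leaving out each library in turn, genotype ran from -0.198 to 0.240 for Tgfb1 and from -0.273 to 0.137 for Ltbp3. Diet ran from -0.334 to 0.284 for Tgfb3, -0.00697 to 0.158 for Tgfbr1, -0.196 to 0.103 for Ltbp1, -0.0720 to 0.351 for Ltbp2, -0.304 to 0.106 for Ltbp3 and -0.179 to 0.184 for Ltbp4.

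The replicate numbers were also fitted as a block. Deviations from group means correlated at -0.346 to 0.412 in 13 same-numbered pairs (2 above 0.1). In 24 pairs with other numbers they correlated at -0.502 to 0.502 (2 above 0.1). In a group of 2 libraries the deviations mirror each other, so these values cannot decide whether equal numbers mark a shared origin. With the replicate block, 0 members were called, 3 genes were called for diet in null against 1 without it, and the genotype difference was -0.0337 for Tgfb1 and 0.233 for Ltbp3.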
